A study of Mus musculus with 5 samples.

Results

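Type I spiral ganglion neurons carry sound from the inner hair cells of the cochlea to the brain, and in the mouse they fall into 3 molecular kinds, Ia, Ib and Ic. Type Ia neurons are marked by high Calb2, type Ic neurons by Lypd1 and Pou4f1, and type Ib neurons by Calb1; Ttn, which encodes the giant muscle protein titin, is a further Ib gene. Described here are the control neurons that had none of the Calb2, Lypd1 or Ttn levels that mark the other groups: type Ib neurons with low Ttn. They were chosen on levels in UMIs (unique molecular identifiers, 1 per captured RNA molecule) per 10000 UMIs of the cell: Dupd1 under 1, Lypd1 under 3, Calb2 under 150 and Ttn under 0.5. That rule gave 184 of 1070 control neurons (17.2%; exact 95% interval 15 to 19.6%), in a data set of 1954 cells. Of the other control neurons, 242 were Calb2-high (150 or more), 314 Lypd1-high (3 or more), 211 Ttn-high type Ib (0.5 or more, under the other thresholds) and 119 Dupd1-high, which is the type II class that contacts outer hair cells. No cell of the 951 type I control neurons passed both the Calb2 and the Lypd1 threshold.

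The cells were tdTomato-positive spiral ganglion neurons sorted from the cochleae of mice of both sexes at postnatal days 30 to 33 and read by droplet single-cell RNA sequencing of the 3' ends of transcripts. Controls (2 samples) were bhlhb5-Cre/+; Ai14/+ and mutants, called CKO (3 samples), bhlhb5-Cre/+; Ai14/+; Runx1F/F, so that both genotypes carried the Cre driver from the bhlhb5 locus and the Ai14 tdTomato reporter, and only cells in which that Cre had been active could be sorted. Runx1 encodes the DNA-binding subunit of a transcription factor that helps to set sensory neuron subtypes. The deposited table gives each cell a genotype but no sample, so each genotype is 1 pool, no test between cells or genotypes was made, and all intervals below cover counting error only. Within the table, cell barcodes are in order within each of 5 runs of columns, of which runs 2 and 5 hold the control cells (482 and 588) and runs 1, 3 and 4 the CKO cells. These runs are called stretches below; whether each is 1 library is not recorded, and 1 barcode occurred in more than 1 of them (stretches 3 and 5). The low-Ttn neurons made up 7.68% of stretch 2 (37 cells) and 25% of stretch 5 (147 cells), so pooled values rest mostly on stretch 5, and the marker values are also given by stretch. They held a median of 40910 UMIs (12029 to 66978), against 48726 in Calb2-high, 37896 in Lypd1-high and 35856 in Ttn-high neurons.

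The label was checked against marker genes. All 8 listed spiral ganglion neuron genes were seen, with a summed level of 90.2 in the low-Ttn neurons and 86.5 to 97.8 in the other type I groups. Genes of other cell types were read in the same way. The 10 Schwann and satellite glial genes were all seen, with a summed mean of 25.9 and a range of 0 to 155 per cell, against means of 21.5 to 26.6 in the other type I groups; 67.9% of the low-Ttn neurons had 5 or more glial UMIs per 10000, against 53.1% of Ttn-high, 64% of Lypd1-high and 70.2% of Calb2-high neurons. The part of glial RNA in the gene differences was not tested. The 4 fibroblast genes in the table summed to 0.988, the 2 hair cell genes to 0.0147, and the 2 macrophage genes were at 0; no endothelial or erythrocyte gene of the lists was in the table.

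Of the 184 cells, 3 stood apart as like type II neurons. Their Myl1 levels were 83, 90.3 and 49.1, where the next highest of the 184 had 1.39, and Myl1, a myosin light chain gene, was also seen in the Dupd1-high type II class, whose lowest cell had 0.708. The 3 cells had Plk5, a type II gene, at 9.02, 2.82 and 3.86, no UMI of Calb1 or Runx1, and Dupd1 at 0.601, 0.94 and 0, which is under the threshold. All 3 lay in stretch 2 and were noticed after their values were seen. They are called type II-like below; levels and fold values are given for the other 181 neurons, and counts of genes with and without the 3. Without them the 7 type II genes summed to 0.784, against 34.6 in the Dupd1-high class. No other cells were left out, so the 181 include some near the Calb2-high end, described with the scores below.

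The rule used Calb2, Lypd1, Ttn and Dupd1, whose values therefore only describe the choice, and since all genes were read in the same cells every difference between the groups is a description. In mm10 coordinates the rule's genes lie at chr8:110137502-110168210 (Calb2, calretinin, a calcium buffer), chr1:125867622-125913101 (Lypd1, a modulator of nicotinic receptors) and chr2:76703980-76982547 (Ttn), each on the minus strand. Mean Calb2 was 69.9 in the 181 neurons, 245 in Calb2-high and 9.88 in Lypd1-high neurons; mean Lypd1 was 0.149 against 35.8 in Lypd1-high neurons. Ttn was not seen in 131 of the 184 cells (71.2%) and was read as 1 UMI in 42, 2 in 10 and 3 in 1. The Ttn threshold thus rested on few UMIs per cell, and 62 of the 211 Ttn-high neurons were at only 0.5 to 1. Mean Ttn in the 181 neurons was 0.0862, above the 0.0528 of Calb2-high and below the 0.209 of Lypd1-high neurons. The latter gap lay in stretch 2 (0.114 against 0.301) and not in stretch 5 (0.0797 against 0.0766).

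Among the 4 marker genes, Calb1 and Casz1 were higher than in both end groups in each stretch, Calb1 by more. Calb1 (chr4:15881264-15908064, plus strand) encodes calbindin, a calcium-buffering protein. Its mean level was 1.51 in stretch 2 and 1.42 in stretch 5, against 0.554 and 0.209 in Calb2-high and 0.104 and 0.0683 in Lypd1-high neurons, so in each stretch the low-Ttn mean was the highest of the 3. The summed UMI rate was 5.3 times that of Calb2-high (4.67 to 6.02) and 16.2 times that of Lypd1-high neurons (13.3 to 19.9), and 1.23 times that of the Ttn-high neurons (1.13 to 1.35), a gap not seen in cells with fewer than 5 glial UMIs per 10000 (log2 -0.04). Single cells spread widely: the quartiles of Calb1 were 0.19, 0.825 and 2.04, the highest cell had 8.18, and 43 of the 181 neurons had no Calb1 UMI.

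Runx1 (chr16:92601466-92826149, minus strand) was at 1.74 and 1.72 in the 2 control stretches, against 0.271 and 0.209 in Calb2-high neurons and 1.77 and 1.94 in Lypd1-high neurons. It thus separated the low-Ttn neurons from the Calb2-high end, with a rate ratio of 8.03 (7.01 to 9.22), and not from the Lypd1-high end, where the ratio was 0.99 (0.923 to 1.06). Only 10 of the 181 neurons had no Runx1 UMI, and the quartiles were 0.963, 1.66 and 2.37. Casz1 (chr4:148804429-148954889, plus strand), a zinc finger transcription factor gene, was at 0.757 and 0.851, above 0.556 and 0.503 in Calb2-high and 0.246 and 0.219 in Lypd1-high neurons. Its rate ratios were 1.66 to Calb2-high and 3.6 to Lypd1-high neurons.

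Efemp1 (chr11:28853204-28926743, plus strand), which encodes a fibulin of the extracellular matrix, did not mark the low-Ttn neurons against the Calb2-high group. Its mean was 0.19 in stretch 2 and 0.457 in stretch 5, against 0.0533 and 0.531 in Calb2-high neurons, so the low-Ttn mean was the higher one in stretch 2 (rate ratio 3.3, 1.55 to 7.36) and not in stretch 5 (0.884, 0.761 to 1.02). Against Lypd1-high neurons (0.0401 and 0.237) it was higher in both stretches. In stretch 2 the gene was read only in some of the cells: of type I neurons with an Xist UMI, 66 of 243 (27.2%) had an Efemp1 UMI, and of those without one 0 of 167 (exact upper limit 2.18%), at medians of 34371 and 35353 UMIs. In stretch 5 the shares were 67 of 120 (55.8%) and 305 of 421 (72.4%). Efemp1 levels therefore differed between sets of cells within a stretch as well as between neuron groups. This split by Xist, the RNA that coats the inactive X chromosome, was chosen after the values were seen. The compared groups differed in it. In stretch 2 an Xist UMI was seen in 78.4% of low-Ttn (type II-like cells included), 51.9% of Calb2-high and 62.7% of Lypd1-high neurons. In stretch 5 these shares were 14.3%, 16.8% and 27.1%. The part of these sets in the Efemp1 ratios was not tested.

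Calb1 and Runx1 were seen in the same cell in a larger share of low-Ttn neurons than of either end group. With each cell thinned to 10000 UMIs, both genes were seen in 79 of 181 low-Ttn neurons (43.6%; 36.3 to 51.2%), in 9 of 242 Calb2-high (3.72%), 9 of 314 Lypd1-high (2.87%) and 0 of 119 Dupd1-high neurons (exact upper limit 3.05%). Runx1 without Calb1, the state of 78.7% of Lypd1-high neurons, was seen in 29.8% of the low-Ttn neurons, and Calb1 without Runx1 in 11.6%, against 12% of Calb2-high neurons. Ttn-high neurons had both genes in 47.9%. No cell was shallower than 10000 UMIs, and without thinning both genes were seen in 135 of 181 low-Ttn (74.6%), 19% of Calb2-high, 14.3% of Lypd1-high, 75.4% of Ttn-high and 0 of 119 Dupd1-high neurons, at medians of 41295, 48726, 37896, 35856 and 25326 UMIs. At full depth 84 of the 181 neurons had all 4 marker genes and 1 had none.

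**Figure D1:**
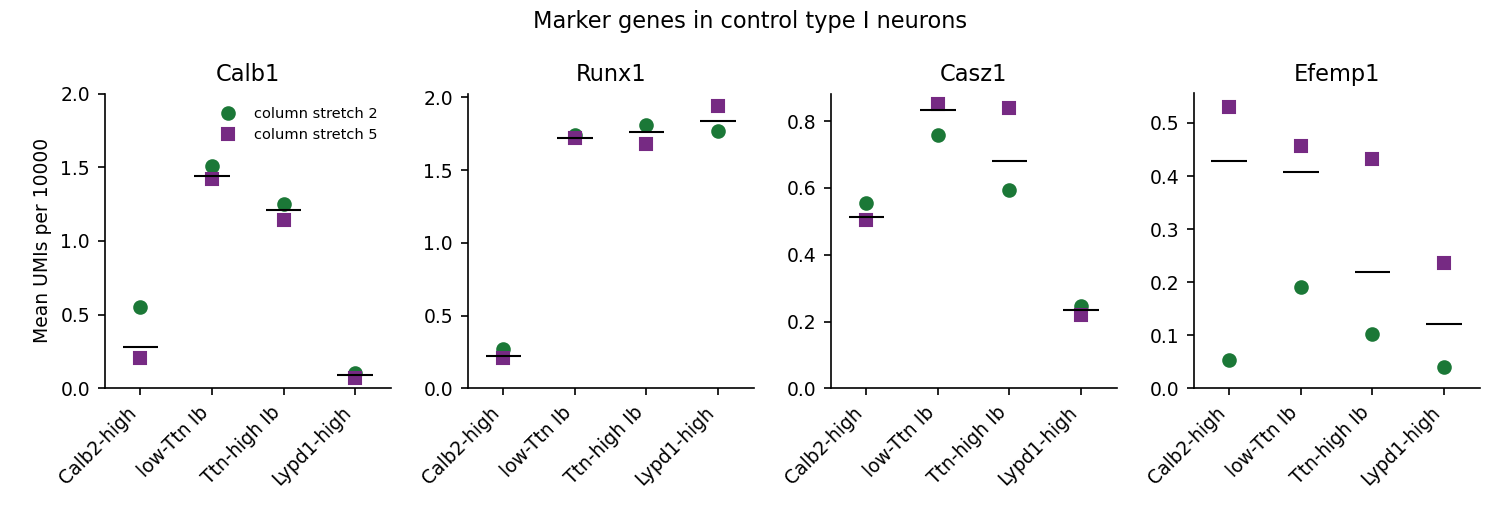
Mean level of the 4 marker genes (UMIs per 10000, vertical axis) in 4 groups of control type I neurons, with green circles for stretch 2, purple squares for stretch 5 and bars for both together, the 3 type II-like cells left out. Calb1 and Casz1 were highest in type Ib groups, Runx1 was low only in the Calb2-high group, and the Efemp1 points of the 2 stretches lay apart in every group.

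Against Calb2-high neurons, 27 genes were at least 2-fold higher in the 184 low-Ttn neurons and 10 lower, of 3753 genes with a mean of 0.5 or more in either group (0.719% and 0.266%). Of these, 26 and 10 had the same sign in both stretches, and 14 and 7 were 2-fold apart in both. Without the 3 type II-like cells the counts were 26 and 10 of 3754 (0.693% and 0.266%). Fold values are log2 of the ratio of mean levels with 0.1 added to each, which understates the fold of low genes; the median over all these genes was 0.04.

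The gene farthest above Calb2-high neurons was Ntng1, which encodes netrin-G1, a membrane-anchored adhesion protein of axons, at 2.22 against 0.0932 (log2 3.59), with 2.69 in Lypd1-high neurons. Its rate ratio was 27.5 (22.4 to 34.2), and the log2 value was 2.93 in stretch 2 and 3.78 in stretch 5. Btbd9, which encodes a BTB domain protein, was at 12.4 against 1.52 (log2 2.95) and 15.1 in Lypd1-high neurons. Slc17a6, the vesicular glutamate transporter VGLUT2 gene, was at 1.72 against 0.279 (2.26), with 3.32 in Lypd1-high neurons. Cpne6, a calcium-dependent membrane-binding protein gene, was at 0.787 against 0.0768 (2.33), with 1.08 in Lypd1-high neurons. Kcnip2, an auxiliary subunit of A-type potassium channels, was at 0.641 against 0.113 (1.80), and Rab15, a vesicle traffic GTPase gene, at 0.61 against 0.111 (1.75). On the log2 scale the low-Ttn level of each of these genes lay closer to the Lypd1-high than to the Calb2-high level.

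Lower than in Calb2-high neurons were, after Calb2 itself, Plin2 (0.101 against 0.554, log2 -1.70), a lipid droplet coat protein gene, and Tmem132c (0.151 against 0.677, -1.63). Rxrg, a retinoid receptor gene listed as a type Ia marker, was at 0.114 against 0.507 (-1.50). Mdga1, which encodes a GPI-anchored protein that binds neuroligins at synapses, was at 4.38 against 12.5 (-1.49), and Car2, carbonic anhydrase, at 0.316 against 0.96 (-1.35). B3gat1, the enzyme that makes the HNK-1 carbohydrate, was at 0.89 against 2.02 (-1.10; rate ratio 0.419, 0.382 to 0.458). The 4 type Ia genes, which include Calb2 from the rule, were all more than 1.5-fold lower; Pcdh20, a protocadherin gene, was at 0.132 against 0.438 (-1.21).

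Against Lypd1-high neurons, 9 genes were at least 2-fold higher and 17 lower of 3840 (0.234% and 0.443%), with a median of all genes of -0.00; without the 3 type II-like cells there were 7 and 17 (0.182% and 0.443%). In both stretches 9 and 16 had the same sign, and 6 and 9 were 2-fold apart in both. Genes shared with Calb2-high neurons were among the higher ones. B3gat1 was at 0.89 against 0.082 (log2 2.44; rate ratio 10.4, 8.39 to 13.1), so it stood well above one end and below the other. Cdk15, a cyclin-dependent kinase gene, was at 0.539 against 0.132 (1.46), with 1.03 in Calb2-high neurons. Cd24a, a GPI-anchored surface protein gene, was at 10.6 against 4.3 (1.28), with 15.3 in Calb2-high neurons, and Zfp804a at 3.86 against 1.59 (1.22), with 6.6.

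On the lower side, beside Lypd1, stood Ccdc109b, which encodes a subunit of the mitochondrial calcium uniporter (0.0112 against 0.904, log2 -3.17), and Grm8, a metabotropic glutamate receptor gene (0.0314 against 0.817, -2.80). Grm8 had no UMI in Calb2-high neurons. Sphkap, an anchor of protein kinase A, was at 0.0853 against 1.14 (-2.74), and Cd164l2 at 0.104 against 1.17 (-2.64). Pou4f1, the POU homeodomain factor used as a type Ic marker, was at 0.129 against 1.17 (-2.47), with -2.11 and -2.54 in stretches 2 and 5. Rph3a, which encodes the synaptic vesicle protein rabphilin, was at 0.224 against 1.73 (-2.50); with the 3 type II-like cells it was -1.52, and 0.10 in stretch 2 alone, so the value moved with those cells. Pcsk2, a prohormone-cleaving protease gene, was at 0.616 against 1.78 (-1.39), and Rbfox3, the NeuN gene, at 0.763 against 2.12 (-1.36), where Calb2-high neurons had 0.149.

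**Figure D2:**
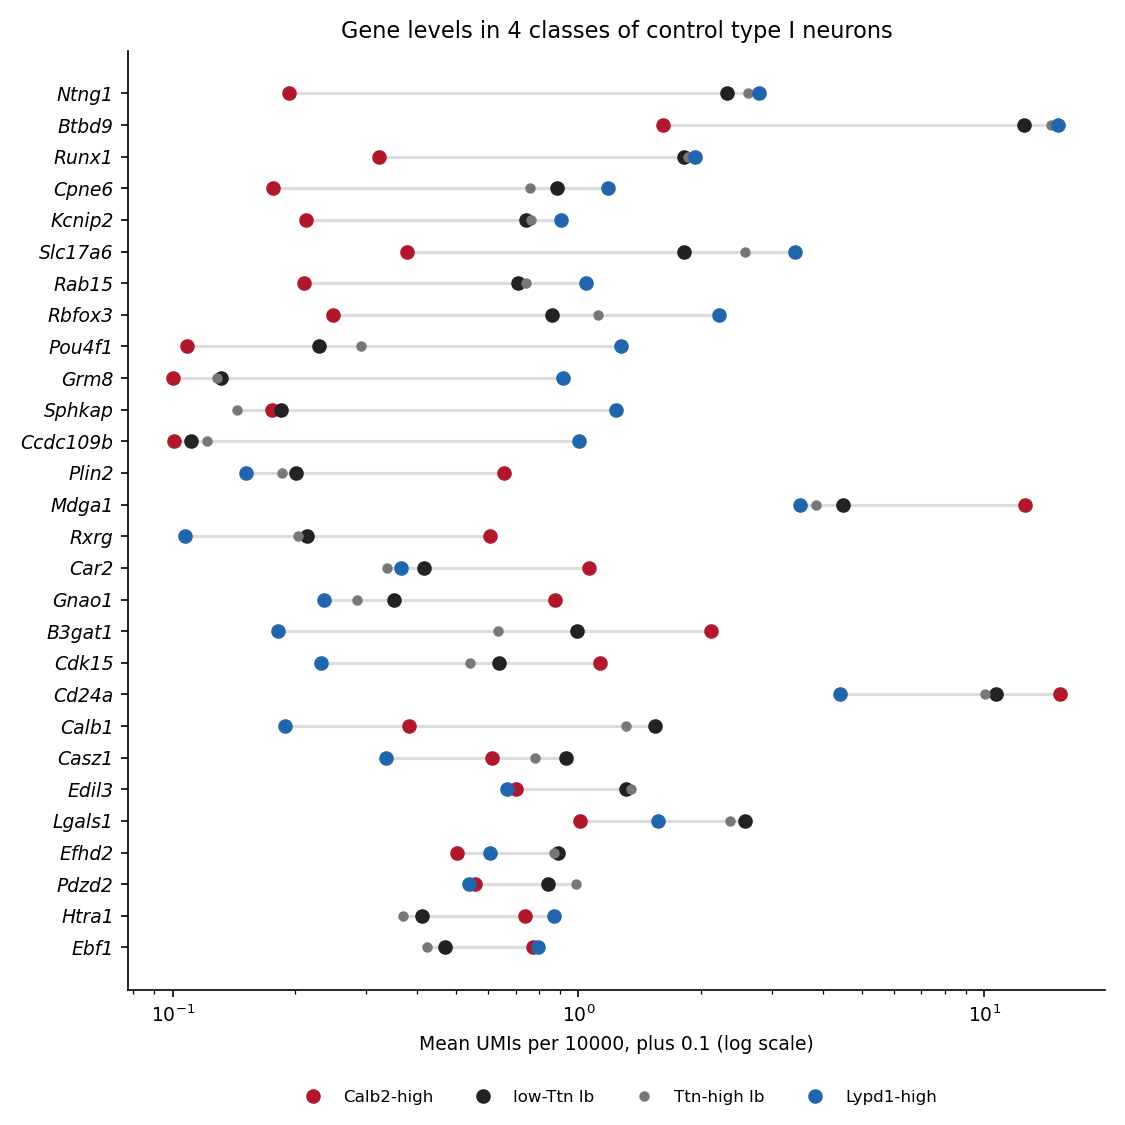
Mean levels of named genes (UMIs per 10000 with 0.1 added, logarithmic horizontal axis) in control Calb2-high, low-Ttn, Ttn-high and Lypd1-high neurons. For Ntng1, Btbd9, Cdk15 and B3gat1 the low-Ttn points lie between the Calb2-high and the Lypd1-high points, while Calb1 lies above both and Htra1 below both.

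Few genes lay outside the range of the end groups. At 1.5-fold or more, 6 genes were above both and 2 below both, of 3892 (0.154% and 0.0514%); the 6 were Calb1, Casz1, Edil3, Lgals1, Efhd2 and Myl1. Without the type II-like cells they were 5 and 2 (0.129% and 0.0514%): Myl1, then at 0.0437, left the count, as did Efhd2 at log2 0.83 and 0.56, and Pdzd2 entered it. Edil3, an integrin-binding matrix protein gene, was at 1.21 against 0.603 in Calb2-high and 0.568 in Lypd1-high neurons. Lgals1, which encodes galectin-1, was at 2.48 against 0.91 and 1.47; within stretch 5 its log2 value against Lypd1-high neurons was 0.50. Pdzd2, a PDZ domain protein gene, was at 0.743 against 0.455 and 0.438, with log2 values of 0.35 and 0.39 within stretch 2. Below both were Htra1, a secreted serine protease gene (0.311 against 0.64 and 0.771), and Ebf1, a helix-loop-helix factor gene (0.369 against 0.674 and 0.693); both were lower in each stretch. The Ttn-high neurons had like levels of Edil3 (1.25), Lgals1 (2.26), Pdzd2 (0.887), Htra1 (0.269) and Ebf1 (0.324).

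The promoters of 4 genes of this pattern are shown because Runx1, the gene deleted in CKO mice, encodes a factor that binds a short core motif. Whether that factor acts on any of these genes was not tested. Each window is the 250 bases before the RefSeq transcript start (GRCm38.p6, the assembly also called mm10), 5' to 3' on the gene's strand. Capitals mark the core TGTGGT or TGCGGT, or its reverse complement ACCACA or ACCGCA, which is the core on the other strand. Casz1 (chr4:148804142-148804391, plus strand) was higher than in both ends; Cdk15 (chr1:59256656-59256905, plus strand) was higher in Calb2-high neurons; Slc17a6 (chr7:51621580-51621829, plus strand) and Kcnip2 (chr19:45816064-45816313, minus strand) were higher in Lypd1-high neurons.
Casz1: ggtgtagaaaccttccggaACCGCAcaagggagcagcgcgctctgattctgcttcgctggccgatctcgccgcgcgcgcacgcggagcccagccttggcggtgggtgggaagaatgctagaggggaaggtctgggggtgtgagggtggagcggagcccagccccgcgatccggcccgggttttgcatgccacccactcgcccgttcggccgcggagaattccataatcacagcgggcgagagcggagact
Cdk15: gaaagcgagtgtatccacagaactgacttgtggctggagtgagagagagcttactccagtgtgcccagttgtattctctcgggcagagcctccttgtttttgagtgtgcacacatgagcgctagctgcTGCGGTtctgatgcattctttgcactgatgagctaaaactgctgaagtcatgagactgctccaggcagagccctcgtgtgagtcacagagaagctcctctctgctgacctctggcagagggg
Slc17a6: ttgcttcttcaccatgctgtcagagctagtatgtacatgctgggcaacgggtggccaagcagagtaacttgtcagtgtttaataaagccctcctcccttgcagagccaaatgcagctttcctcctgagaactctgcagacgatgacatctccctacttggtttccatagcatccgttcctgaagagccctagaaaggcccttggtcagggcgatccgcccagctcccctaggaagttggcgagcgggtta
Kcnip2: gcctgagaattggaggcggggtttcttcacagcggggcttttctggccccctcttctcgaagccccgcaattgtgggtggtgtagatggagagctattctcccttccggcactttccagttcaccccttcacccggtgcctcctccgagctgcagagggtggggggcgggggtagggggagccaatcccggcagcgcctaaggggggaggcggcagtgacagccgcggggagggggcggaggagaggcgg

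A core was found once in the Casz1 window, 231 bases before the start, and once in the Cdk15 window, 122 bases before it. The Slc17a6 and Kcnip2 windows held none, which says only that these letters are not there. Of 27025 genes with such windows, 5656 (20.9%) held a core in any of their windows. Of the genes 2-fold apart between the end groups, 12 of 59 matched genes that were higher in Lypd1-high neurons did (20.3%; 15 more had no matched window), and 11 of 28 that were higher in Calb2-high neurons (39.3%; 12 more unmatched). These shares count a core in any window of a gene, while each promoter shown is only the window nearest the gene start. A match is a stretch of letters, not a binding site.

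To place the neurons between the ends, genes 2-fold apart between Calb2-high and Lypd1-high neurons were chosen in 1 control stretch, without the rule's genes, and read in the other, with a position of 0 at the Calb2-high mean and 1 at the Lypd1-high mean on the log2 scale. Of 91 genes chosen in stretch 2, 89 (97.8%) lay between 0 and 1 in stretch 5, with a median of 0.528 (quartiles 0.355 and 0.683). Of 121 chosen in stretch 5, 104 (86%) did so in stretch 2 with a median of 0.543, or 101 (83.5%) with 0.564 without the type II-like cells. Genes higher in Lypd1-high neurons had medians of 0.579 and 0.57, and genes higher in Calb2-high neurons 0.425 and 0.481, so the medians of both sets were near the middle. Without the type II-like cells the stretch 2 medians were 0.61 and 0.461. Single genes lay near either end. In stretch 5 Runx1 was at 0.939 and Ntng1 at 0.935, while Sphkap was at 0.0111 and Ccdc109b at 0.0168. Ttn-high neurons had medians of 0.581 and 0.572 for the same genes.

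A mean in the middle can come from cells in the middle or from a mixture of cells of both ends, so each cell was also scored. The score is the percentage of a cell's UMIs on these genes that fell on those higher in Lypd1-high neurons, after thinning to 10000 UMIs, with genes from the other stretch. In stretch 5 the median score was 20.9 in Calb2-high, 57.7 in low-Ttn and 80.4 in Lypd1-high neurons. There, 116 of 147 low-Ttn neurons (78.9%; 71.4 to 85.2%) lay above the 95th percentile of Calb2-high neurons (35) and below the 5th percentile of Lypd1-high neurons (70.8), 13 lay in the Calb2-high range and 18 in the Lypd1-high range. In stretch 2 the medians were 39.5, 69.8 and 83.6, and 24 of 34 low-Ttn neurons (70.6%; 52.5 to 84.9%) lay between the limits of 53.4 and 74, 10 in the Lypd1-high range and 0 in the Calb2-high range. Most single cells therefore had intermediate scores. Of the 13 in the Calb2-high range, those with scores of 16.3, 17.5, 19.7, 22.4, 26.4, 27.9, 33.6 and 34.7 had no Runx1 UMI. The rest of the 13 had Runx1 at 0.172 to 0.673. All 13 were kept among the low-Ttn neurons, and whether they are type Ia neurons under the Calb2 threshold was not tested. Scores in stretch 5 used 55 genes higher in Lypd1-high and 36 higher in Calb2-high neurons, and those in stretch 2 used 82 and 39. Scores can therefore be read against the end groups of the same stretch, but not compared between stretches. Ttn-high neurons had medians of 59.6 in stretch 5 and 70.3 in stretch 2, with 85.3% and 64.7% between the limits.

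**Figure D3:**
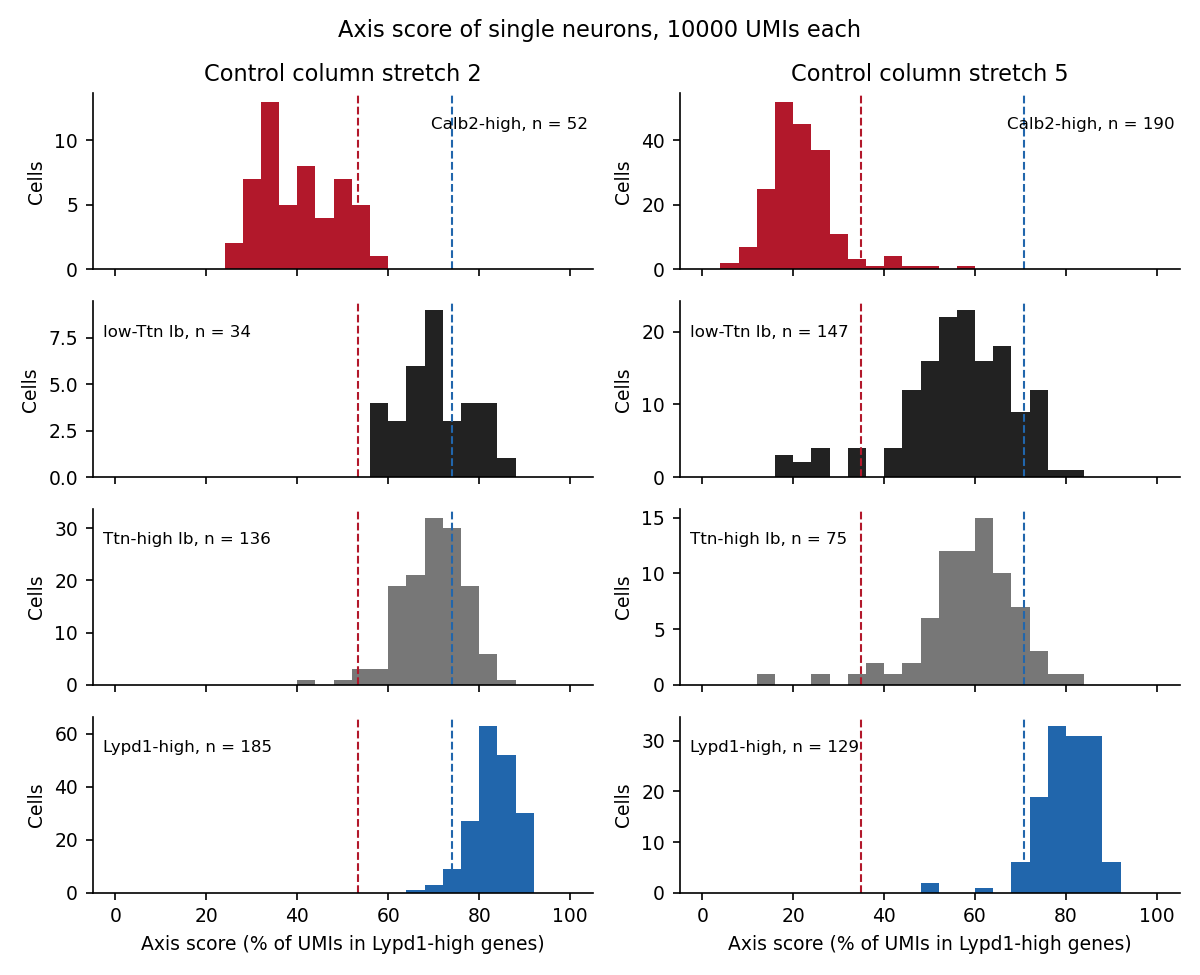
Number of control neurons (vertical axis) by axis score, the percentage of axis-gene UMIs that fall on genes higher in Lypd1-high neurons (horizontal axis), for stretch 2 (left) and stretch 5 (right); dashed lines are the 95th percentile of Calb2-high and the 5th percentile of Lypd1-high neurons. Low-Ttn neurons, with median scores of 69.8 and 57.7, form 1 main hump between the end groups, with a small low-score tail in stretch 5.

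The low-Ttn neurons were not uniform, and their genes varied with their Calb2 level, which the rule left free up to 150. Over 4 ranges of Calb2 (0 to 30, 30 to 60, 60 to 100 and 100 to 150; 25, 52, 66 and 38 cells), B3gat1 was at 0.184, 0.704, 0.933 and 1.53, and Cdk15 at 0.331, 0.456, 0.593 and 0.694. In the other direction Rbfox3 was at 1.4, 0.932, 0.602 and 0.393, Sncg, the gamma-synuclein gene, at 1.51, 1.38, 0.72 and 0.5, and Ntng1 at 2.68, 2.43, 2.15 and 1.77. B3gat1 and Rbfox3 kept a like course within stretches: B3gat1 was at 0.249, 0.573, 0.564 and 1.23 in stretch 2 and at 0.158, 0.736, 0.992 and 1.62 in stretch 5. Ntng1 had no such order in stretch 2 (1.83, 2.3, 1.54 and 1.9), and neither had Cdk15 (0.217, 0.725, 0.389 and 0.594) or Sncg (1.1, 0.572, 0.862 and 0.47). Runx1 varied less, at 1.81, 1.84, 1.72 and 1.5, and Calb1 was highest in the middle ranges, at 0.754, 1.56, 1.74 and 1.2, with its top at 30 to 60 in stretch 2 (2.74) and at 60 to 100 in stretch 5 (1.81). Mdga1 was at 2.81, 3.61, 4.43 and 6.4 over both stretches, but at 3.55, 4.17, 3.73 and 3.77 in stretch 2 alone, which had 7, 10, 9 and 8 cells. The lowest Calb2 range still held some Lypd1 (0.675) and Pou4f1 (0.336), against 0.0297 and 0.0684 in the highest.

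**Figure D4:**
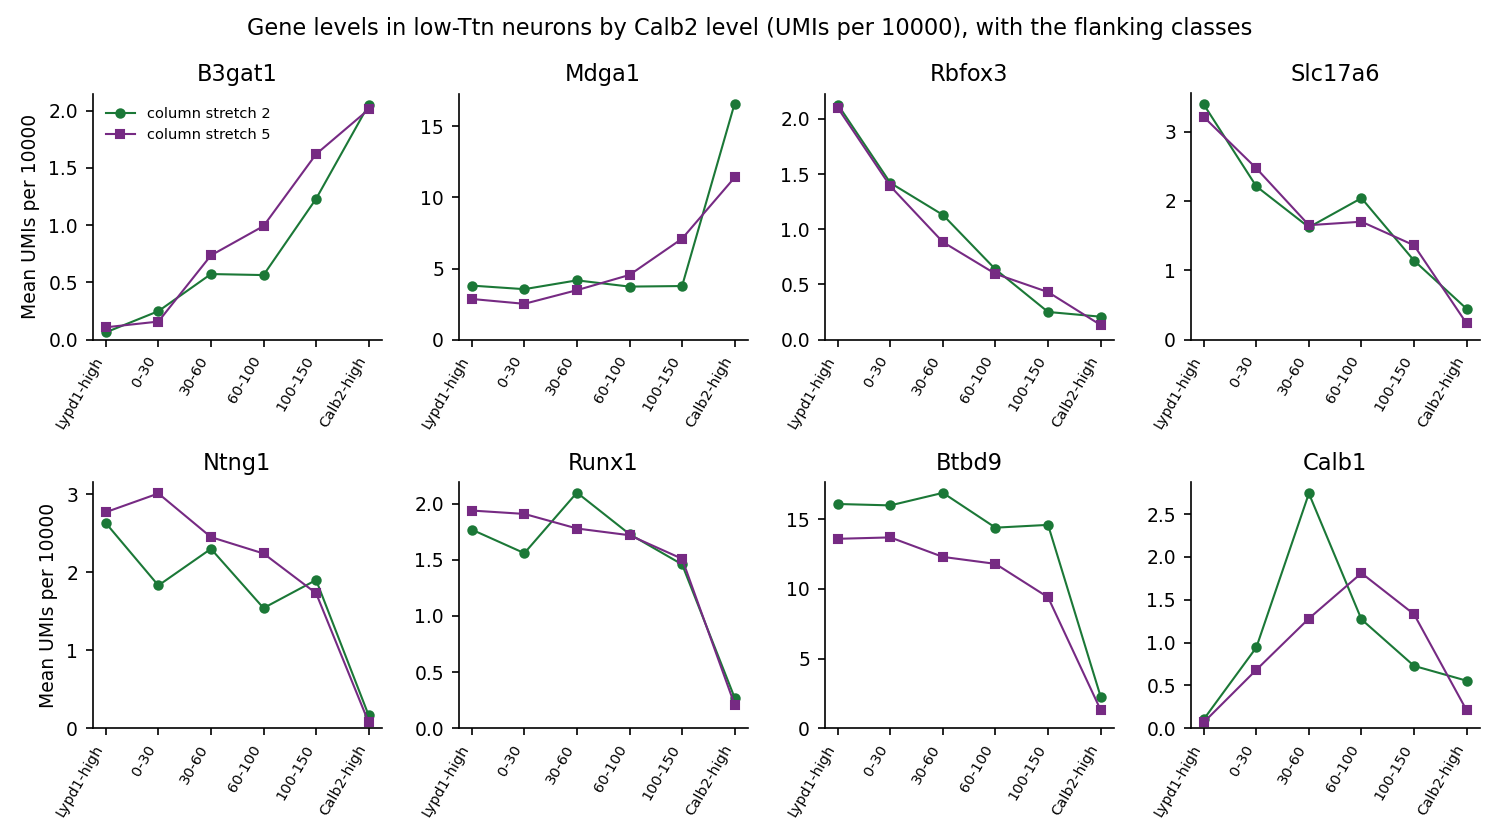
Mean level of genes (UMIs per 10000, vertical axis) in low-Ttn neurons over 4 ranges of their own Calb2 level (horizontal axis), with the Lypd1-high and Calb2-high groups at the sides, green circles for stretch 2 and purple squares for stretch 5; the 3 type II-like cells are left out. B3gat1 is higher and Rbfox3 lower in neurons with more Calb2 in both stretches, Runx1 and Btbd9 stay well above the Calb2-high level in every range, and Calb1 is highest in a middle range.

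Cells just inside and just outside the thresholds were read as a description. The 38 neurons with Calb2 of 100 to 150 had mean Runx1 of 1.5, Ntng1 of 1.77 and Btbd9 of 10.5, where the 52 Calb2-high neurons from 150 to 200 had 0.434, 0.303 and 2.92. The 12 low-Ttn neurons with Lypd1 of 1 to 3 had Pou4f1 at 0.4 and Calb1 at 0.565, where the 12 Lypd1-high neurons from 3 to 6 had 0.809 and 0.691. The 53 low-Ttn neurons with a Ttn UMI had Calb1 at 1.73, Calb2 at 65.4 and Runx1 at 1.8, where the 62 neurons with Ttn of 0.5 to 1 had 1.05, 57.9 and 1.65.

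Apart from Ttn, the low-Ttn and Ttn-high type Ib neurons were close. Of 3803 genes, 1 was at least 2-fold higher (Myl1) and 1 lower (Ttn, which the rule fixed), 0.0263% each; without the 3 type II-like cells no gene was higher, and within stretch 5 there were 0 higher and 4 lower of 3808 (0.105%). At 1.5-fold and a mean of 0.2, without those cells, 7 of 6640 were higher and 12 lower (0.105% and 0.181%); B3gat1 was higher in both stretches (0.89 against 0.534, log2 0.64; 0.34 and 0.58 within stretches), and Calb2 had log2 values of 0.38 and 0.35. Slc17a6 had -0.61 and -0.26. Other pooled differences shrank within the stretches, where the 2 groups had unequal shares: Scg5, a chaperone of a prohormone convertase, had log2 0.69 over both but 0.41 and 0.13 within, Rpl37 0.61 but 0.23 and 0.02, and Efemp1 0.67 but 0.52 and 0.07. The ribosomal protein gene Rps2 had -0.93, and -0.06 and -1.24 in stretches 2 and 5. Within stretches the 2 groups also differed in their share of cells with an Xist UMI. In stretch 2 it was 78.4% of low-Ttn (type II-like cells included) and 52.2% of Ttn-high neurons, and in stretch 5 14.3% and 42.7%. The part of these cell sets in the differences within stretches, that of B3gat1 included, was not tested.

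The share of type Ib neurons that were low in Ttn differed between sets of cells. It was 37 of 173 (21.4%; 15.5 to 28.3%) in stretch 2 and 147 of 222 (66.2%; 59.6 to 72.4%) in stretch 5, with 46.6% over both. These shares count the 3 type II-like cells, all in stretch 2. Without them the share was 34 of 170 (20%) in stretch 2 and 46.2% over both. Depth was higher in stretch 5; among cells with 40000 UMIs or more the shares were 2 of 18 (11.1%) and 98 of 138 (71%). The mean Ttn level of all type Ib neurons was 2.07 and 0.657. In stretch 2 the share was 29% in cells with an Xist UMI and 11% in those without, and in stretch 5 it was 39.6% and 74.6%, so the order of the 2 sets was opposite. Leaving out the type II-like cells, the 29% became 26.8%. In stretch 5 Rps2 was seen in all 53 type Ib cells with Xist and in 6 of 169 (3.55%) without, while in stretch 2 it was seen in 94% and 93.2%. Sets of cells with and without Xist thus differed in Ttn and Efemp1 within both stretches, and in Rps2 within stretch 5 only. The part of animal, sex or library in the low-Ttn share was not tested.

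**Figure D5:**
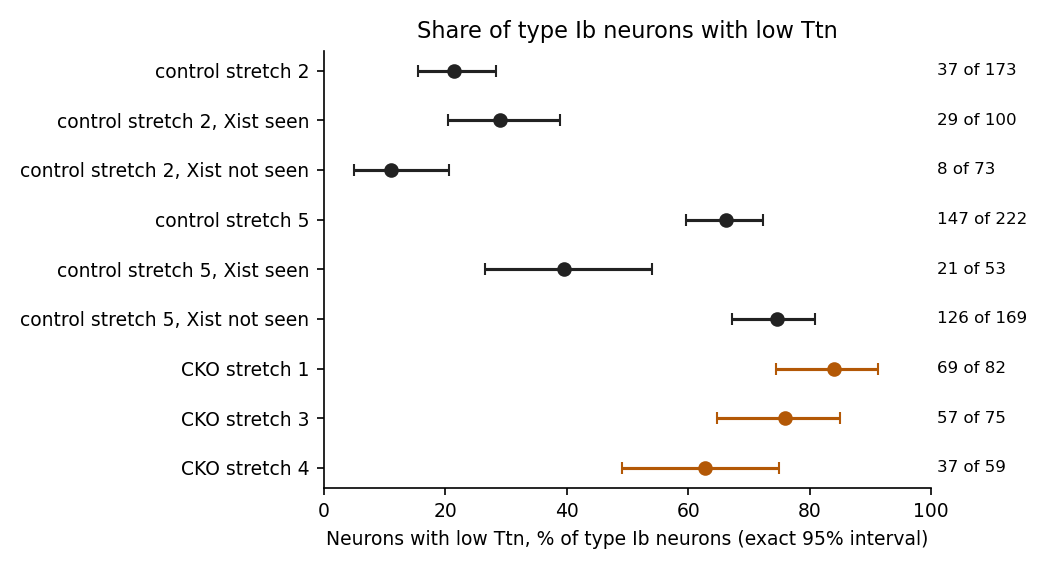
Share of type Ib neurons with Ttn under 0.5 UMIs per 10000 (%, horizontal axis, with exact 95% intervals for counting error) in sets of control cells and in the CKO stretches. The control sets run from 11% to 74.6%, and the CKO stretches from 62.7% to 84.1%.

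The gene lists were read at 1.5-fold with a mean of 0.2 or more in either group, over the 181 neurons; over all genes this held for 114 higher and 56 lower of 6621 against Calb2-high (1.72% and 0.846%) and for 75 and 107 of 6719 against Lypd1-high neurons (1.12% and 1.59%). The lists of gene functions are given by their counts and by their median log2 values, first against Calb2-high and then against Lypd1-high neurons; over all genes these medians were 0.05 and -0.01. The lists were written with earlier results of these data known.

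Among 28 transcription factor genes of sensory neurons, 4 were higher and 3 lower than in Calb2-high neurons (median log2 0.06). Among the higher were Runx1, Casz1 and Cbfb, the partner subunit of Runx proteins (0.416 against 0.219, log2 0.69 in each stretch). Lower were Rxrg, Ebf1 and Maf (2.21 against 3.73). Against Lypd1-high neurons 4 of 30 were higher, among them Zfhx3 (0.984 against 0.571) and Maf (2.21 against 1.27), and 4 lower, among them Bcl11a (0.204 against 0.488) and Zeb2 (0.0768 against 0.238), with a median of -0.00. Maf thus had a level between those of the 2 ends.

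Of 6 A-type potassium channel genes and partners, Kcnip1 (0.97 against 0.502) and Kcnip2 were higher than in Calb2-high neurons and Kcnip4 was lower (0.558 against 1.01), the last with log2 0.06 in stretch 2 and -0.97 in stretch 5. Kcnab2, a beta subunit of potassium channels, was the 1 of 7 lower than in Lypd1-high neurons (3.54 against 5.43); the list medians were 0.39 and -0.29. None of 6 genes of the Kv1, Kv2 and Kv3 channels and none of 7 calcium channel genes passed 1.5-fold against either end; the Kv medians were 0.17 and -0.06 and the calcium channel medians 0.31 and 0.05. Of 5 sodium channel genes, Fgf12, which encodes a channel-binding protein, was lower than in Calb2-high neurons (3.67 against 5.6, log2 -0.60), and none passed against Lypd1-high neurons (medians -0.07 and 0.01). Among 9 leak and related channel genes, the potassium channel gene Kcnk10 was higher than in Calb2-high neurons (0.2 against 0.0699), and Kcnk1 (8.07 against 5.07) higher and Kcnk3 (0.0714 against 0.2) lower than in Lypd1-high neurons (medians 0.10 and 0.19).

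Of 28 synaptic release genes, Slc17a6 and Sv2b (1.28 against 0.77) were higher than in Calb2-high neurons (median 0.12). Against Lypd1-high neurons, Syngr1 was the 1 higher of 29 (1.06 against 0.621), and Slc17a6, Rph3a and Cplx2 (0.0571 against 0.477), a complexin gene, were lower (median 0.02). Of 7 glutamate receptor genes, Grik4, a kainate receptor subunit, was higher than in Calb2-high neurons (0.301 against 0.131); none passed against Lypd1-high neurons (medians 0.29 and 0.02). Of 5 GABA, glycine and acetylcholine receptor genes none passed against either end (medians 0.19 and -0.08). Among 22 synaptic adhesion genes Ntng1 was the 1 that passed against Calb2-high neurons, and Lrrtm3 was the 1 of 21 lower than in Lypd1-high neurons (0.385 against 0.757, log2 -0.82, and -0.45 and -0.30 within stretches 2 and 5); the medians were 0.15 and 0.07. Of 6 cadherin and protocadherin genes, Cdh9 (0.304 against 0.0377) and Cdh22 (0.404 against 0.0748) were higher than in Lypd1-high neurons, and Cdh4 (0.19 against 0.507) and Pcdh9 (0.115 against 0.23) lower; none of 5 passed against Calb2-high neurons (medians -0.09 and -0.11). Cdh9 and Cdh22 were thus shared with the Calb2-high end within 1.5-fold.

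Of 12 calcium-binding protein genes, 2 were lower than in Calb2-high neurons, Hpcal1 (0.174 against 0.436) and Kcnip4 (above), and 1, Ncald, was lower than in Lypd1-high neurons (0.139 against 0.424), with medians of 0.08 and -0.11. In the mitochondrial and energy list Pygm, muscle glycogen phosphorylase, lay between the ends: it was the 1 of 36 lower than in Calb2-high neurons (0.235 against 0.548) and the 1 of 37 higher than in Lypd1-high neurons (0.0233), with medians of -0.06 and 0.09. No gene passed in the neurofilament and cytoskeleton list (21 genes, medians 0.02 and 0.07). Axon guidance genes gave 0 of 13 against Calb2-high, and against Lypd1-high neurons Unc5d was higher (1.03 against 0.627) and Dcc lower (0.0482 against 0.201) of 14, with medians of 0.18 and 0.12. Among neurotrophin and GDNF receptors Ngfr, the p75 receptor gene, was the 1 of 9 higher than in Lypd1-high neurons (0.765 against 0.402), and none passed against Calb2-high neurons (medians -0.01 and 0.24). In the granin and neuropeptide list Pcsk2 was the 1 of 7 to pass, higher than in Calb2-high (0.616 against 0.266) and lower than in Lypd1-high neurons (medians 0.05 and 0.06). Of the immediate early and stress genes, Jun was the 1 of 8 higher than in Calb2-high neurons (2.21 against 1.36), and none of 9 passed against Lypd1-high neurons (medians 0.01 and -0.15). Of the sodium pumps and transporters Slc8a1, a sodium-calcium exchanger gene, was the 1 of 12 higher than in Lypd1-high neurons (0.243 against 0.0977), with none passing against Calb2-high neurons (medians 0.14 and 0.09). Of 13 secreted and matrix protein genes, Efemp1 was the 1 higher than in Lypd1-high neurons and none passed against Calb2-high neurons (medians 0.14 and 0.07). No glial gene passed against either end, with medians of 0.27 and 0.18.

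The same rule in CKO cells gave 163 of 884 (18.4%; 15.9 to 21.2%): 19.4, 15.3 and 23.6% in stretches 1, 3 and 4. Low-Ttn cells were 163 of 216 type Ib neurons by the rule (75.5%), and none had Myl1 of 20 or more. Mean Runx1 in these cells was 2.66, 2.46 and 1.79 in the 3 stretches, against 1.72 in the 181 control neurons; 3' reads need not pass through the deleted part of the gene, so they do not check the deletion. Calb1 was at 3.09, 2.2 and 2.64 in the CKO stretches against 1.44. Btbd9 was at 1.74, 4.21 and 14.9 against 12.4, and B3gat1 at 1.96, 2.31 and 0.293 against 0.89, so stretch 4 stood apart from the other CKO stretches. Median Btbd9 was 0.922, 1.22 and 13.8 against 13, so the stretch 3 mean lay well above its median. Casz1 (0.462, 0.417 and 0.802 against 0.833), Lgals1 (0.628, 0.914 and 1.45 against 2.48) and Edil3 (0.716, 0.52 and 1.25 against 1.21) were also highest in stretch 4 among the CKO stretches. These are values of cells chosen by the same levels in 1 pool per genotype, and no test between genotypes was made.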

How the data were processed

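Single-cell RNA levels were read in 1954 spiral ganglion neurons of 2 control and 3 CKO samples. The authors deposited 1 table of 14715 genes as the natural log of 1 plus 100000 times a gene's UMI count over the cell's total, with a second table giving the genotype of each cell in the same order; the scale was worked out from the values. Cell Ranger, Seurat and the mm10 build appear in the submitters' processing notes; filters on cells are not given in the sources used here. The deposited values were turned back into UMI counts, of which 100% were whole within 0.01, with totals of 10379 to 100856 per cell; no count model was run on them. Column names carry no sample, so cells are not tied to animals, replicate numbers or libraries, and no p-value was computed.

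Levels are means over cells of UMIs per 10000. Groups were set in the order Dupd1, Lypd1, Calb2, Ttn. A gene was counted at 2-fold with a mean of 0.5 or more, and in lists or against both ends at 1.5-fold; 0.1 was added before log2. The members and gene lists were chosen with earlier results of these data known. Genes named are the markers, the rule's genes, type lists, the 10 farthest each way in each comparison and up to 4 of each list; predicted, Y-linked and mitochondrial-genome genes were left out, 1 listed gene is not reported here, and the type II-like cells, other list genes past 1.5-fold and the Xist sets were chosen after their values were seen. Shares carry exact 95% binomial intervals, and UMI rate ratios 95% intervals for counting error. No doublet caller was run. Scripts (Python 3.11.15, numpy 2.4.6, scipy 1.17.1) were tested on simulated data. Promoters are RefSeq windows of GRCm38.p6; gene positions are GENCODE's for mm10. Alternatives were other thresholds, pseudocounts, filters, depth and glial limits, and leaving out each stretch.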

Additional observations from a re-analysis of the deposited data

How the results depend on the processing

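No paired analysis was possible because the cells carry no sample or replicate number and no test was made. The neurons were chosen on these same values, depth limits genes under about 1 UMI a cell, and no cause of a change below was tested.

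The low-Ttn share of control cells (17.2%) was 7.68 to 25% with 1 stretch left out, 14.2% in cells with fewer than 5 glial UMIs per 10000, 13.6% and 21.4% at Calb2 thresholds of 100 and 200, and 12.2% with 0 Ttn UMIs. The low-Ttn share of type Ib neurons (46.6%) was 21.4 to 66.2% with 1 stretch left out.

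The counts here include the type II-like cells unless stated. Against Calb2-high neurons, 27 genes higher became 11 with 0.5 added and 48 with no filter on low means, and 10 lower became 2 with 0.5 added. Against Lypd1-high neurons, 9 higher became 12 to 21 with 1 stretch left out, 19 in glia-poor cells, 15 with 0.02 added, 25 with no filter and 20 at a minimum mean of 0.2, and 17 lower became 10 with 0.5 added, 34 with no filter and 32 at a minimum of 0.2. Genes above both ends (6) were 6 to 28 with 1 stretch left out (28 without stretch 5), 21 with no filter and 14 at a minimum of 0.2; genes below both (2) were 0 at a Calb2 threshold of 200 and 0 with 0.5 added.

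Against Ttn-high neurons, the 1 gene higher became 0 to 16 with 1 stretch left out (16 without stretch 5), 4 in glia-poor cells, 2 at a Calb2 threshold of 100, 2 with 0.02 added, 3 with no filter, 4 as a mean of the 2 stretch means, and 0 without the type II-like cells, by cells or by stretch means. The 1 gene lower became 1 to 4 with 1 stretch left out, and 2 by summed UMIs, with 25000 UMIs or more, with 0 Ttn UMIs and with 0.02 added.

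The stretch 2 axis median of 0.543 became 0.671 in glia-poor cells, with 72.5% of genes between the ends, and 97.4% were between with all control cells. The pooled share of cells between the limits, 71.2%, was 78.8% without thinning. The CKO share of 18.4% stayed between 17.3 and 20.7% with 1 stretch left out.

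Among named genes 2-fold or more apart, Myl1 and Rph3a changed sign under an alternative. Smaller values did so too: Efemp1 against Calb2-high neurons was 0.84 without stretch 5, Ttn against Lypd1-high neurons 0.02 without stretch 2, and against Ttn-high neurons Calb1 was -0.04 in glia-poor cells and Rps2 0.15 without stretch 5. Myl1 against Calb2-high neurons was 1.87, ranged from -1.47 (without stretch 2) to 5.21 (without stretch 5), and was -1.36 without the type II-like cells and -1.22 as stretch means without them; against Ttn-high neurons it was 2.37, ranged from -0.08 to 4.27, and was -0.87 and -0.92 without those cells. Rph3a against Lypd1-high neurons was -1.52, and ranged from -2.59 without stretch 2 to 0.10 without stretch 5.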
